A study of Homo sapiens with 8 samples.

Results

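Kinesins are motor proteins that use ATP to move along microtubules or to take microtubules apart. The kinesin genes were taken as the protein-coding genes whose symbol is KIF followed by a digit or by C, which gave 42 of the 60669 genes in the count tables. Of these, 14 were grouped as mitotic kinesins, 17 as transport kinesins and 11 as other kinesins, by textbook role. A kinesin was counted as detected at a mean of 0.5 or more on the counts-per-million (CPM) scale over the 8 libraries, and 35 of the 42 passed, made up of 12 mitotic, 16 transport and 7 other genes. CENPE and STARD9, which also encode kinesins, lie outside the symbol rule.

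Messenger RNA was sequenced from HCT116, a line from a human colon carcinoma, in 4 groups of 2 libraries. The groups were wild-type (WT) cells without treatment, WT cells after 24 h in 0.5 µM doxorubicin, DPF2 R350H cells without treatment, and DPF2 R350H cells after the same doxorubicin treatment. DPF2 belongs to BAF, a complex that remodels chromatin, the R350H change was placed in the genome of the line with CRISPR/Cas9, and doxorubicin is a topoisomerase II poison that breaks DNA. The series asked how this change alters gene expression under DNA damage. The labels give neither the number of edited clones nor the cultures behind the replicates. The p-values therefore cover nothing beyond the spread of these 8 samples, possibly technical, and effects of the edit cannot be told apart from further differences between the lines.

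Mitotic kinesins build the spindle, move and align chromosomes on it and drive cytokinesis, and cells make most of them in G2 and mitosis. Transport kinesins carry vesicles, organelles, RNA and ciliary cargo, and several serve dividing and resting cells alike, while KIF5A, KIF5C, KIF1A, KIF17 and KIF21B are best known from neurons. Many late cell cycle genes are switched off in arrested cells through the DREAM complex, which binds a short promoter element called the cell cycle genes homology region (CHR), often placed downstream of CCAAT boxes.

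Promoter windows are shown first because the kinesin classes differ in these letters. Windows came from RefSeq (build GRCh38.p14) and run from 250 bases before to 50 bases after an annotated transcript start, whose first base is position 1. Of the 35 detected kinesins, 28 had a window and 7 did not (KIF5A, KIF13B, KIF21B, KIF26B, KIF27, KIFC2 and KIFC3). The search took the CHR letters TTTGAA and TTTAAA and the letters CCAAT on both strands. Each sequence below covers 100 bases before to 30 bases after the start, 5′ to 3′ on the gene's strand, with capitals for these letters or their reverse complement. KIF20A, KIF14 and KIF4A are shown because they had the smallest adjusted p values among the kinesins that fell in WT, KIF18A for the largest genotype difference of the class, KIF11 as a spindle motor whose response differed between the genotypes, and KIF1C and KIF5B are the most abundant transport kinesins per length.
KIF20A: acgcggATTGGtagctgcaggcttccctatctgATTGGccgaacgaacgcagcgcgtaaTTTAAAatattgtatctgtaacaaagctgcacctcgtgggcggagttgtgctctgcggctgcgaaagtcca
KIF14: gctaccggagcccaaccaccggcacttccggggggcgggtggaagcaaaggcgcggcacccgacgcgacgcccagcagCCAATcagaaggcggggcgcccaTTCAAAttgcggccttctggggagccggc
KIF4A: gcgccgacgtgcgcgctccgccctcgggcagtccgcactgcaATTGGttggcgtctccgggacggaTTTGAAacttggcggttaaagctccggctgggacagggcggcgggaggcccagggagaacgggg
KIF18A: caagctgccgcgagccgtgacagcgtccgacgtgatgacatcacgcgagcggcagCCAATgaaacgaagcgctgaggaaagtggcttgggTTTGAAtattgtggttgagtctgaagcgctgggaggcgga
KIF11: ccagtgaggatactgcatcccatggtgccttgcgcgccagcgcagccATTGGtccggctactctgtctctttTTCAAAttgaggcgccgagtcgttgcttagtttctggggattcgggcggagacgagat
KIF1C: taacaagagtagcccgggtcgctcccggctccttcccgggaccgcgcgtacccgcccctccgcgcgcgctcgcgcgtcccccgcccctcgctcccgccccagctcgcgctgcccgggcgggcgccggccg
KIF5B: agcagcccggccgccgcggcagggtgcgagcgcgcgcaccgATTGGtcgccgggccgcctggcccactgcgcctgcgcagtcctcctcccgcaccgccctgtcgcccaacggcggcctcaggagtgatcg

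These stretches lie at chr5:138179012-138179141 on the plus strand for KIF20A, chr1:200620722-200620851 on the minus strand for KIF14, chrX:70290004-70290133 on the plus strand for KIF4A, chr11:28108127-28108256 on the minus strand for KIF18A and chr10:92593030-92593159 on the plus strand for KIF11. The transport stretches lie at chr17:4997850-4997979 on the plus strand for KIF1C and chr10:32056396-32056525 on the minus strand for KIF5B. In the 5 mitotic stretches the CCAAT letters precede the CHR letters, which begin at -41 in KIF20A, 2 in KIF14, -34 in KIF4A, -10 in KIF18A and -28 in KIF11. KIF1C has neither set of letters, and KIF5B has the CCAAT letters at -59 and its CHR letters further out, at -140.

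Over the whole windows, 11 of the 12 detected mitotic kinesins held the CHR letters, 2 of 11 transport kinesins (KIF5B and KIF16B) and 0 of 5 other kinesins. The same letters stood in 21.0% of the 11859 tested genes with a window and in 24.0% of all 35116 windows. The match nearest to the start lay between -55, in KIF23, and 25, in KIF20B, in those 11 mitotic genes, against -140 and -241 in the 2 transport genes. KIF22 was the mitotic kinesin with no match. CCAAT letters stood in 10 of 12 mitotic, 4 of 11 transport and 2 of 5 other kinesins, and in 42.8% of tested genes. The E2F letters TTTGGCGC and TTTCCCGC stood in KIF15 alone among the 28 kinesins, and in 4.39% of tested genes. A match of letters is a description of the window and not a binding site, and genes with several windows had more chances of a match.

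**Figure D1:**
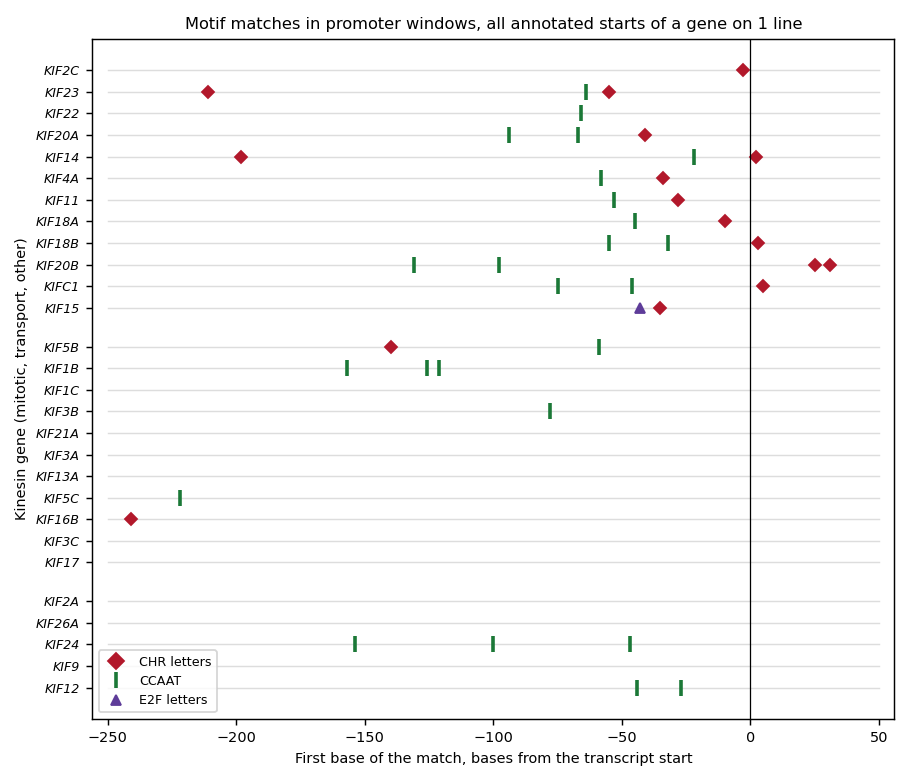
Position of the first base of each match (x axis, bases from the transcript start) in the promoter windows of the 28 detected kinesins with a window (1 line per gene, mitotic at the top, then transport, then other). CHR letters (diamonds) sit between -55 and 31 in 11 of 12 mitotic lines, with 2 more matches further upstream, and appear in 2 of 11 transport lines, while bars mark CCAAT and the triangle the E2F letters of KIF15.

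Libraries held 28111673 to 33727374 counts. DPF2 was at 92.7 to 108.3 CPM in the 4 WT libraries and 53.5 to 58.6 CPM in the 4 R350H libraries, and the counts do not show the edited base. Epithelial markers fitted the label, with 6 of 6 detected and a summed level of 2530 to 3779 CPM per library. Blood markers summed to 0.0920 to 0.530 CPM with 0 of 5 detected, endothelial markers to 0.813 to 1.57 CPM with 1 of 4, and fibroblast markers to 33.3 to 88.7 CPM with 1 of 5 and LUM at 0. Of 6 neuron markers, 2 were detected (MAP2 and SYP), and the sums over all 6 are given beside the transport kinesins. Untreated WT replicate 1 and untreated R350H replicate 2 were counted with strand setting 1 and the other 6 libraries with setting 2.

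Per length, as transcripts-per-million (TPM) computed from the counts and exon lengths, the kinesin-1 heavy chain gene KIF5B (chromosome 10, 32009015 to 32056425, hg38) was the most abundant kinesin, with a mean of 190.9 TPM over the 8 libraries. The microtubule depolymerase gene KIF2C followed at 74.7 TPM, then KIF1C, which carries dense core vesicles and integrins, at 58.2 TPM, KIF3B, a subunit of the heterotrimeric kinesin-2 of cilia, at 55.0 TPM and KIF20A, a motor of cytokinesis, at 53.1 TPM. KIF2A, a depolymerase of spindle poles and growing axons, was the most abundant of the other kinesins at 21.6 TPM. The least abundant detected kinesins were KIF17 at 2.77 CPM and KIF26B at 1.04 CPM. The 7 kinesins under the detection limit were KIF6 (0.156 CPM), KIF7 (0.125), KIF1A (0.118), KIF19 (0.111), KIF4B (0.0558), KIF25 (0.0041) and KIF2B, which had 0 counts. KIF4B is a near-identical copy of KIF4A, and it held 0 to 4 counts per library against 719 to 3064 for KIF4A, so the split of reads between them is uncertain.

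Summed over each class, mitotic kinesins made up 55.9 ± 0.26% of mitotic plus transport kinesin TPM in untreated WT cells (SD, n = 2) and 32.3 ± 0.24% after doxorubicin. In R350H cells the shares were 56.9 ± 0.41% and 31.7 ± 0.55%. The shares of treated and untreated libraries did not overlap in either genotype. Mitotic sums went from 619 ± 24 to 219 ± 14 TPM in WT and from 733 ± 14 to 243.7 ± 4.7 TPM in R350H. Transport sums went from 488 ± 24 to 458 ± 24 TPM in WT, where libraries of the groups overlapped, and from 554.7 ± 1.2 to 524.8 ± 3.3 TPM in R350H, where they did not. On the CPM scale, not divided by length, the WT transport sum went the other way, from 1235 ± 43 to 1251 ± 5.1. The R350H transport sum went from 1331 ± 8.7 to 1301.3 ± 3.3 CPM. RNA came from whole cultures, so fewer cells in G2 and mitosis and less RNA per such cell cannot be told apart.

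With doxorubicin the mRNA of every detected mitotic kinesin fell in both genotypes. In WT cells 12 of 12 fell and 0 rose, and in R350H cells 12 of 12 fell and 0 rose, by edgeR's quasi-likelihood test at a Benjamini-Hochberg adjusted p under 0.05 over 17868 genes. Among all genes tested, 23.6% were lower and 24.1% higher with doxorubicin in WT, and 21.8% were lower and 26.1% higher in R350H. The median log2 change of the mitotic kinesins was -1.31 in WT, where all genes had a median of -0.03, and -1.70 in R350H, where all genes had 0.03. All 24 calls held in each alternative of the fit, including the fits without 1 library.

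KIF20A (chromosome 5, 138178719 to 138187723), which brings the chromosomal passenger complex to the central spindle, had the largest fall of the class in WT. It was at 98.6 and 93.1 CPM in untreated WT, 15.8 and 18.3 in treated WT, 130.4 and 119.1 in untreated R350H and 30.3 and 32.7 in treated R350H. The 4 groups did not overlap, and treated R350H libraries stood above treated WT libraries. KIF20A fell 5.61-fold in WT (log2 change -2.49 ± 0.08, SE, adjusted p = 3.83e-19) and 3.96-fold in R350H (-1.99 ± 0.08, adjusted p = 6.1e-18).

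KIF14 (chromosome 1, 200551497 to 200620751), a cytokinesis motor that binds citron kinase and PRC1, was at 95.8 and 84.6 CPM in untreated WT and 19.2 and 21.8 in treated WT. Its R350H libraries had 122.8 and 122.8 CPM untreated and 24.2 and 25.9 treated. Treated libraries were far below untreated ones in both genotypes, with no overlap. The log2 changes were -2.14 ± 0.08 in WT (adjusted p = 6.86e-18) and -2.29 ± 0.08 in R350H (adjusted p = 5.67e-19).

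KIF4A (chromosome X, 70290104 to 70420886), a chromokinesin that also limits microtubule growth in the central spindle, was at 91.8 and 89.5 CPM in untreated WT and 25.4 and 25.7 in treated WT. In R350H it had 85.1 and 88.5 CPM untreated and 22.3 and 24.0 treated. Its response was nearly the same size in the genotypes, at -1.83 ± 0.07 in WT (adjusted p = 1.76e-17) and -1.91 ± 0.07 in R350H (adjusted p = 4.69e-18). The difference between the responses was -0.08 ± 0.10 (adjusted p = 0.661), which does not show that the responses were equal.

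KIF2C (chromosome 1, 44739818 to 44767767), which removes tubulin from wrongly attached microtubules at centromeres, was at 130.1 and 135.7 CPM in untreated WT and 46.9 and 52.1 in treated WT. The R350H libraries had 145.6 and 145.9 CPM untreated and 32.7 and 33.7 treated, the lowest values of the 4 groups. The falls were 2.68-fold in WT (-1.42 ± 0.07, adjusted p = 9.6e-16) and 4.39-fold in R350H (-2.13 ± 0.07, adjusted p = 2.97e-19).

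The other mitotic kinesins fell over a range of sizes. Among spindle assembly motors, the change was -1.002 ± 0.075 in WT and -1.35 ± 0.07 in R350H for KIF11, which pushes spindle poles apart. KIF15, which can take over from KIF11, changed by -1.12 ± 0.08 and -1.75 ± 0.09, and KIFC1, a minus-end motor that clusters spindle poles, by -1.28 ± 0.08 and -1.27 ± 0.08. Of the motors that align chromosomes, KIF18A changed by -1.28 ± 0.08 in WT and -0.76 ± 0.07 in R350H and KIF22 by -0.71 ± 0.06 and -0.86 ± 0.07. KIF18B, which works with KIF2C at microtubule ends, changed by -1.64 ± 0.09 and -1.88 ± 0.09. Of the cytokinesis motors, KIF23, the kinesin of centralspindlin, changed by -1.33 ± 0.07 and -1.65 ± 0.07. KIF20B changed least in WT, by -0.52 ± 0.08, and by -0.83 ± 0.07 in R350H.

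**Figure D2:**
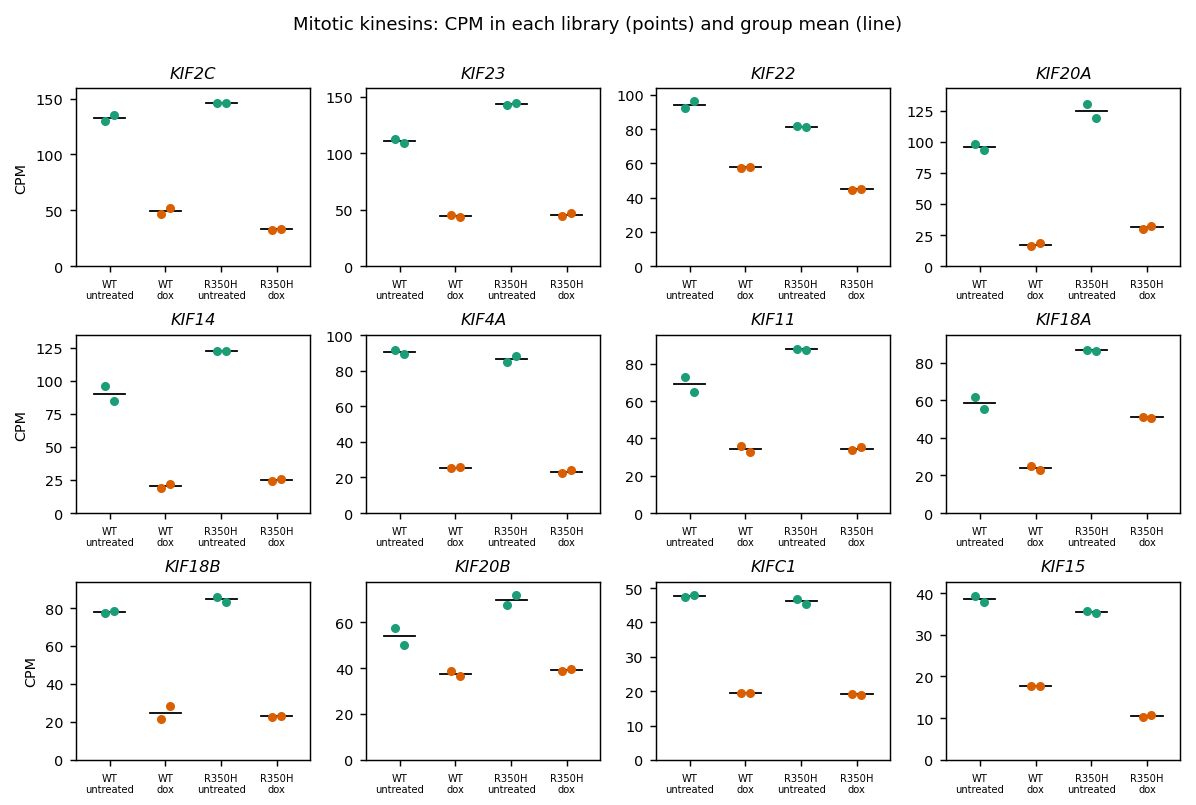
CPM (y axis, from 0) of the 12 detected mitotic kinesins in each library (points) with the group mean (line), for untreated (green) and doxorubicin-treated (orange) WT and R350H cells, n = 2 per group. Every treated point lies below every untreated point of the same genotype, and KIF18A and KIF20A stand higher in treated R350H than in treated WT cells.

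Transport kinesins moved in both directions with doxorubicin and by less. Of 16 tested, 6 rose and 6 fell in WT (37.5% each), and 4 rose and 4 fell in R350H (25.0% each). Of all genes tested, 24.1% rose and 23.6% fell in WT, and 26.1% rose and 21.8% fell in R350H. The R350H shares of the transport kinesins were thus near those of all genes. Medians of the transport kinesins were -0.03 in WT and 0.02 in R350H, next to -0.03 and 0.03 for all genes. The genes that rose in both genotypes were KIF1C, KIF3C, KIF17 and KIFC2, and those that fell in both were KIF5A, KIF5B, KIF13B and KIF16B. KIF1B, KIF3A, KIF3B and KIF21A were called in neither. Summed neuron markers, mostly MAP2, moved with treatment over these same libraries, from 52.4 to 62.1 CPM in untreated WT to 22.0 to 22.2 CPM in treated WT, and from 77.6 to 83.2 to 25.2 to 26.2 CPM in R350H, and their part in the transport results was not tested.

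KIF1C (chromosome 17, 4997950 to 5028401) had the smallest adjusted p among the rises. It was at 128.7 and 128.6 CPM in untreated WT, 183.5 and 181.0 in treated WT, 153.7 and 152.9 in untreated R350H and 206.9 and 207.6 in treated R350H. The 4 groups did not overlap, with both treated groups above both untreated ones. It rose by 0.50 ± 0.06 in WT (adjusted p = 1.25e-07) and 0.44 ± 0.06 in R350H (adjusted p = 1.02e-06).

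KIFC2, a kinesin with its motor at the C-terminal end, was at 55.7 and 65.2 CPM in untreated WT and 87.2 and 112.0 in treated WT. In R350H it had 57.2 and 55.6 CPM untreated and 83.2 and 87.8 treated. It rose by 0.72 ± 0.10 in WT (adjusted p = 6.76e-05) and 0.60 ± 0.10 in R350H (adjusted p = 3.22e-04). Treated and untreated libraries did not overlap, and the spread was widest in treated WT.

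KIF3C, which pairs with KIF3A, was at 11.1 and 9.66 CPM in untreated WT, 16.2 and 15.0 in treated WT, 10.6 and 9.50 in untreated R350H and 14.2 and 13.6 in treated R350H. It rose by 0.59 ± 0.11 in WT (adjusted p = 7.07e-05) and 0.47 ± 0.11 in R350H (adjusted p = 8.12e-04). KIF3A and KIF3B, which pair in the kinesin-2 of cilia, did not pass the test. In WT they changed by -0.13 ± 0.07 and -0.10 ± 0.06, and in R350H by 0.04 ± 0.07 and -0.02 ± 0.06. KIF17, the kinesin-2 that works as a homodimer, was scarce, at 2.04 and 1.72 CPM in untreated WT, 3.54 and 3.90 in treated WT, 2.53 and 1.73 in untreated R350H and 3.28 and 3.44 in treated R350H. It rose by 0.98 ± 0.21 in WT (adjusted p = 4.2e-04) and 0.66 ± 0.21 in R350H (adjusted p = 0.0104). The R350H call was lost without untreated R350H replicate 2 (0.41, adjusted p = 0.212) or treated R350H replicate 2 (0.59, adjusted p = 0.0763), by DESeq2 (0.63, adjusted p = 0.0572) and without the 2 libraries of strand setting 1 (0.40, adjusted p = 0.211).

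The kinesin-1 heavy chains did not move together. KIF5B was at 397.0 and 365.9 CPM in untreated WT, 336.6 and 316.2 in treated WT, 433.4 and 453.1 in untreated R350H and 350.2 and 345.5 in treated R350H. It fell by 0.23 ± 0.07 in WT (adjusted p = 0.0064) and by 0.35 ± 0.07 in R350H (adjusted p = 7.66e-05), and treated libraries were below untreated ones in both genotypes. The 21 other tested genes within 3 Mb of KIF5B had median changes of -0.38 in WT and -0.43 in R350H. The part of this region in the fall of KIF5B was not tested. KIF5A was at 22.0 and 19.7 CPM in untreated WT, 16.0 and 17.0 in treated WT, 32.4 and 30.8 in untreated R350H and 18.8 and 16.2 in treated R350H. It fell by 0.34 ± 0.10 in WT (adjusted p = 0.00467) and by 0.85 ± 0.09 in R350H (adjusted p = 1.42e-08), and the treated libraries of the genotypes overlapped. KIF5C was at 18.3 and 16.4 CPM in untreated WT, 22.8 and 22.0 in treated WT, 29.97 and 28.39 in untreated R350H and 27.8 and 26.5 in treated R350H. It rose by 0.37 ± 0.09 in WT (adjusted p = 0.0013), and its R350H change was -0.10 ± 0.08 (adjusted p = 0.321). In WT, KIF5A lost its call without untreated WT replicate 1 (-0.26, adjusted p = 0.0700) and KIF5B without treated WT replicate 2 (-0.14, adjusted p = 0.134) or in a fit of the 4 WT libraries alone (-0.21, adjusted p = 0.0572). Both calls were also lost without the 2 libraries of strand setting 1 (-0.26 for KIF5A and -0.17 for KIF5B).

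Among kinesins of endosomes and junctions, KIF16B, which carries early endosomes, was at 24.1 and 25.7 CPM in untreated WT, 12.8 and 17.0 in treated WT, 25.9 and 25.1 in untreated R350H and 20.7 and 22.2 in treated R350H. It fell by 0.74 ± 0.10 in WT (adjusted p = 1.57e-06) and by 0.25 ± 0.10 in R350H (adjusted p = 0.0389). The R350H fall was not called without untreated R350H replicate 1 (-0.23), untreated R350H replicate 2 (-0.27) or treated R350H replicate 1 (-0.22), by DESeq2 (-0.28, adjusted p = 0.0567) or without the 2 libraries of strand setting 1 (-0.28, adjusted p = 0.123). KIF13B fell by 0.36 ± 0.07 in WT and by 0.24 ± 0.07 in R350H, where the call was lost without treated R350H replicate 2 (-0.24, adjusted p = 0.0638). KIF13A, which moves recycling endosomes, fell by 0.25 ± 0.07 in WT, with an R350H change of 0.06 ± 0.07, and the WT call was lost without untreated WT replicate 1 (-0.19), treated WT replicate 1 (-0.21) or the 2 libraries of strand setting 1 (-0.19). KIFC3, a minus-end motor of epithelial junctions, rose by 0.31 ± 0.07 in WT, and its R350H change was 0.04 ± 0.08. Without the 2 libraries of strand setting 1 the WT rise of KIFC3 was 0.21 (adjusted p = 0.0513). KIF21B, which paces microtubule growth, fell by 0.72 ± 0.08 in WT (adjusted p = 1.34e-08), with an R350H change of -0.05 ± 0.08 (adjusted p = 0.689). KIF21A was not called in either genotype, at 0.15 ± 0.07 in WT and 0.05 ± 0.07 in R350H, and it passed in WT without untreated WT replicate 1 (0.25), treated WT replicate 2 (0.26) or the 2 libraries of strand setting 1 (0.25).

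**Figure D3:**
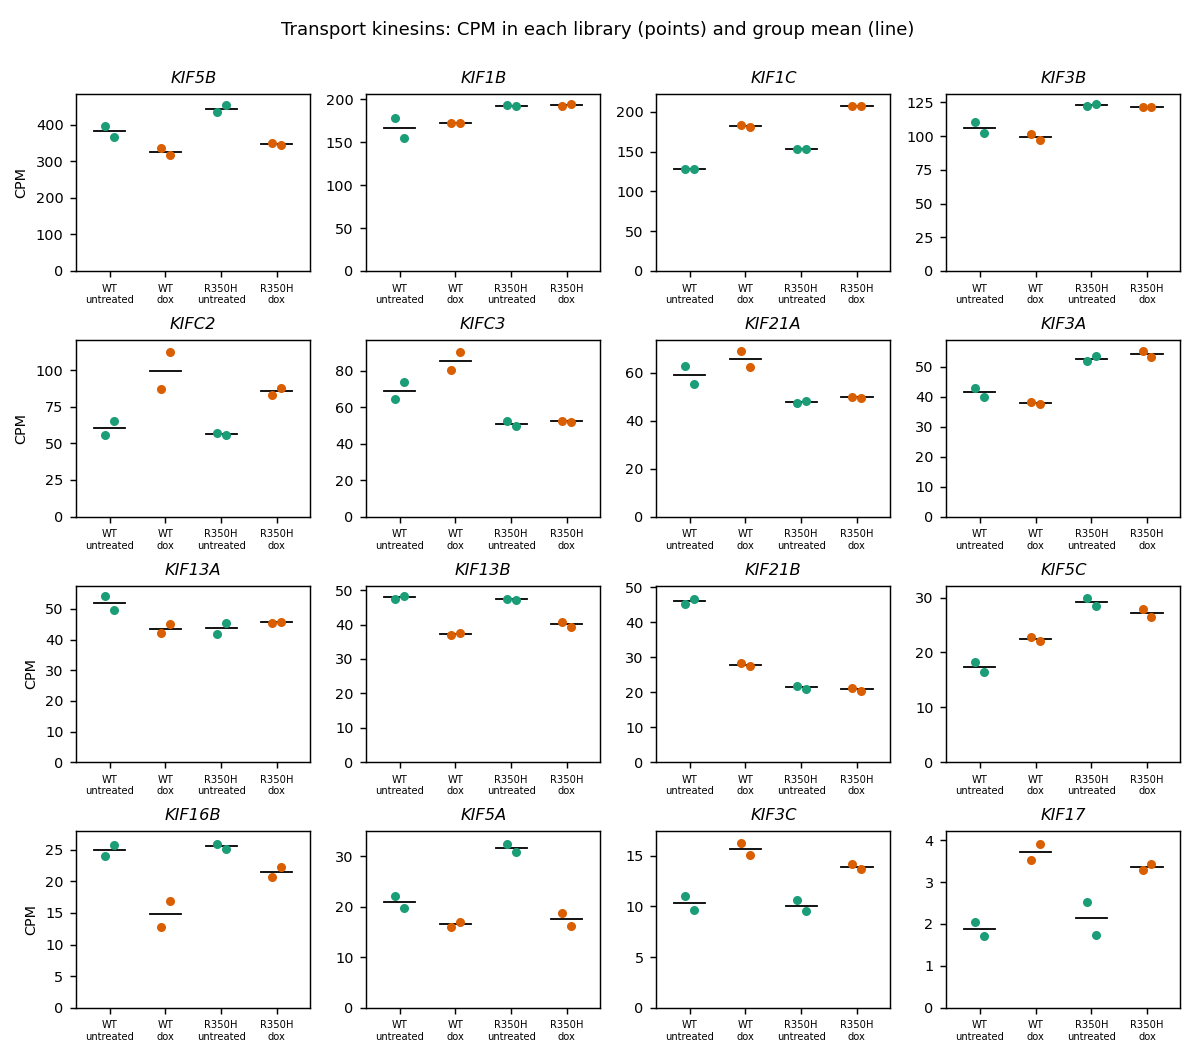
CPM (y axis, from 0) of the 16 detected transport kinesins in each library (points) with the group mean (line), for untreated (green) and doxorubicin-treated (orange) WT and R350H cells, n = 2 per group. Treated points lie above untreated ones of the same genotype for KIF1C, KIFC2, KIF3C and KIF17, and below for KIF5B, KIF5A, KIF13B and KIF16B.

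Of the 7 other kinesins tested, 2 rose and 1 fell in WT and 2 rose and 2 fell in R350H, shares near those of all genes (24.1% and 23.6% in WT, 26.1% and 21.8% in R350H). KIF24, which holds back the growth of cilia at the mother centriole, fell in both, by 0.64 ± 0.11 and by 0.91 ± 0.11. KIF12 was at 3.99 and 5.34 CPM in untreated WT, 6.05 and 6.27 in treated WT, 4.47 and 4.21 in untreated R350H and 6.93 and 5.82 in treated R350H. Treated libraries were above untreated ones in both genotypes, and KIF12 rose by 0.41 ± 0.16 in WT (adjusted p = 0.0365) and 0.55 ± 0.16 in R350H (adjusted p = 0.00477). The WT rise of KIF12 was lost in 8 alternatives, with 0.20 (adjusted p = 0.416) without untreated WT replicate 1, 0.44 and 0.43 without treated WT replicate 1 or 2, 0.41 without untreated R350H replicate 1 or 2, 0.42 by DESeq2, 0.43 in a fit of the 4 WT libraries and 0.20 without the 2 libraries of strand setting 1. The R350H rise was lost without untreated R350H replicate 2 (0.51) or treated R350H replicate 1 (0.40). KIF26B, an atypical kinesin, went from 0.659 and 0.659 CPM to 1.66 and 1.61 CPM in WT (1.30 ± 0.32, adjusted p = 0.00133) and from 1.13 and 0.680 to 1.04 and 0.899 CPM in R350H, which overlapped.

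KIF26A, the relative of KIF26B, rose in R350H by 0.31 ± 0.10 and changed by 0.07 ± 0.10 in WT, and the R350H call was lost without untreated R350H replicate 1 (0.24), treated R350H replicate 1 (0.32) or treated R350H replicate 2 (0.24) and by DESeq2 (0.28, adjusted p = 0.0558). KIF27, a relative of the Hedgehog regulator KIF7, fell in R350H by 0.26 ± 0.10, a call lost without any 1 of the 4 R350H libraries (-0.23 to -0.31), by DESeq2 (-0.28), without the filter (-0.25) and without the 2 libraries of strand setting 1 (-0.23), and changed by -0.24 ± 0.10 in WT. KIF2A was not called in either genotype, with 69.2 and 61.6 CPM in untreated WT, 75.7 and 70.8 in treated WT, 62.9 and 68.7 in untreated R350H and 72.6 and 69.6 in treated R350H. Treated libraries were a little above untreated ones, by 0.16 ± 0.07 in WT (adjusted p = 0.0654) and 0.11 ± 0.07 in R350H (adjusted p = 0.212), and the WT change passed without untreated WT replicate 1 (0.25), treated WT replicate 2 (0.25) or the 2 libraries of strand setting 1 (0.25) and with DESeq2's size factors (0.18). KIF9, a motor of motile cilia, was not called in any of the comparisons.

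**Figure D4:**
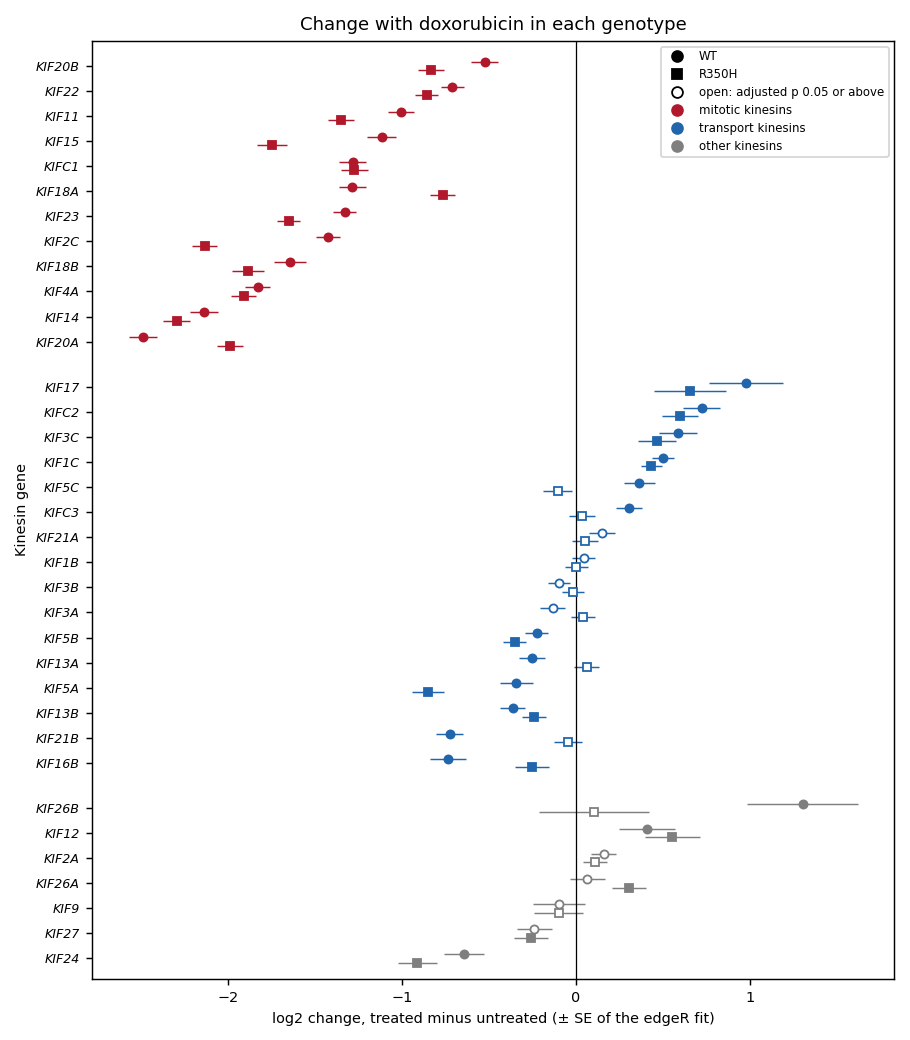
Log2 change with doxorubicin (x axis, treated minus untreated, bars are the SE of the edgeR fit) of the 35 detected kinesins in WT (circles) and R350H (squares), filled where the adjusted p is under 0.05, n = 2 libraries per group. All 24 mitotic points (red) lie below 0, between -2.49 and -0.52, while transport points (blue) lie between -0.85 and 0.98.

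Companion genes were read as lists beside the motors, against all genes tested, of which 24.1% rose and 23.6% fell in WT and 26.1% rose and 21.8% fell in R350H. Of 20 spindle partners, 20 fell in WT (median -1.32) and 19 fell in R350H (median -1.41), among them the kinetochore kinesin CENPE at -2.69 ± 0.08 and -2.26 ± 0.08 and the mitotic kinase PLK1 at -2.79 ± 0.08 and -2.03 ± 0.07. Of 23 transport adaptors, 3 rose and 5 fell in WT and 4 rose and 4 fell in R350H, each share below that of all genes. TRAK1, which links kinesin-1 to mitochondria, rose by 0.75 ± 0.07 and 0.42 ± 0.07, and KIFAP3, the non-motor subunit of the KIF3A and KIF3B motor, fell by 0.76 ± 0.09 and by 0.50 ± 0.09. Of 23 tested genes of dynein and dynactin, the minus-end motor complex, 2 rose and 7 fell in WT (8.70% and 30.4%) and 4 rose and 7 fell in R350H (17.4% and 30.4%). NDE1, a dynein regulator at kinetochores, had the smallest adjusted p of that list in both genotypes, at -0.96 ± 0.08 and -1.75 ± 0.08.

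Regulators of the DREAM and MYB-MuvB complexes, which act at CHR promoters, were read as a list of 15. In WT 5 rose and 2 fell (33.3% and 13.3%), and in R350H 5 rose and 6 fell (33.3% and 40.0%). Among all genes tested, 24.1% rose and 23.6% fell in WT, and 26.1% rose and 21.8% fell in R350H. CDKN1A, the cyclin-dependent kinase inhibitor p21, rose by 1.88 ± 0.07 in WT and 0.90 ± 0.07 in R350H. Between the genotypes, CDKN1A was called higher in R350H without treatment and was not called in either direction with doxorubicin. FOXM1, an activator of late cell cycle genes, fell in both, from 61.1 and 63.6 to 31.7 and 33.7 CPM in WT and from 79.5 and 72.1 to 24.2 and 29.4 CPM in R350H. MYBL2, the MYB subunit of that complex, changed by -0.11 ± 0.07 in WT (adjusted p = 0.197) and fell by 1.08 ± 0.07 in R350H. E2F1 rose by 0.77 ± 0.10 in WT and fell by 0.43 ± 0.10 in R350H. The levels of these regulators moved over the same libraries as the mitotic kinesins, and their part in the kinesin changes was not tested.

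Without treatment, more kinesins were higher than lower in R350H cells. Of 35 tested, 13 were higher and 5 lower than in WT, where 17.3% of all genes tested were higher and 19.5% lower. Among mitotic kinesins 6 were higher (KIF11, KIF14, KIF18A, KIF20A, KIF20B and KIF23) and 1 lower (KIF22), with a median difference of 0.24. Among transport kinesins 7 were higher (KIF1B, KIF1C, KIF3A, KIF3B, KIF5A, KIF5B and KIF5C) and 4 lower (KIF13A, KIF21A, KIF21B and KIFC3), with a median of 0.11. Of the 7 other kinesins, 0 were called by edgeR, 0 had an unadjusted p under 0.05 and 0 were called by DESeq2. All genes had a median of -0.01.

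KIF18A (chromosome 11, 28020619 to 28108156), which dampens chromosome movements at the metaphase plate, had the largest genotype difference among the mitotic kinesins. It was at 61.6 and 55.2 CPM in untreated WT, 25.2 and 22.8 in treated WT, 86.9 and 86.4 in untreated R350H and 51.4 and 50.6 in treated R350H. The groups did not overlap, and treated R350H libraries stood between the untreated and the treated WT libraries. KIF18A was 1.48-fold higher in R350H untreated (0.57 ± 0.07, adjusted p = 3.14e-07). KIF14 was higher by 0.44 ± 0.07 (adjusted p = 1.33e-05), KIF20A by 0.38 ± 0.07, KIF23 and KIF20B by 0.37 ± 0.06 and 0.37 ± 0.07, and KIF11 by 0.35 ± 0.07. KIF2C (0.13 ± 0.06, adjusted p = 0.109), KIF18B, KIF4A, KIFC1 and KIF15 did not pass. The lower level of KIF22 (-0.21 ± 0.06, adjusted p = 0.00892) was not called without untreated R350H replicate 1 (-0.22) or 2 (-0.21).

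KIF21B (chromosome 1, 200969390 to 201023700) had the largest genotype difference of any kinesin. It was at 45.3 and 46.8 CPM in untreated WT and 28.3 and 27.5 in treated WT, against 21.9 and 21.1 in untreated R350H and 21.2 and 20.4 in treated R350H. The WT groups stood above all 4 R350H libraries, which were close together. KIF21B was 2.14-fold lower in R350H untreated (-1.10 ± 0.08, adjusted p = 1.29e-11).

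The neuronal kinesin-1 genes KIF5C and KIF5A had the next largest differences, and both were higher in R350H. KIF5C was higher by 0.75 ± 0.09 (adjusted p = 1.06e-07) and KIF5A by 0.60 ± 0.09 (adjusted p = 7.29e-06), with no overlap between the untreated groups in the values above. MAP2 and SYP, the detected neuron markers, were also called higher in untreated R350H. All 6 neuron markers summed to 77.6 to 83.2 CPM there against 52.4 to 62.1 CPM in untreated WT, and their part in these differences was not tested. KIF3A was at 43.1 and 40.1 CPM in untreated WT, 38.2 and 37.8 in treated WT, 51.9 and 53.5 in untreated R350H and 55.4 and 53.3 in treated R350H, so that all 4 R350H libraries stood above all 4 WT libraries. It was higher by 0.34 ± 0.07 (adjusted p = 3.87e-04), and its partner KIF3B by 0.21 ± 0.06 (adjusted p = 0.0101). The calls of KIF3B, KIF5B (0.22 ± 0.07) and KIF1B (0.20 ± 0.07) were lost without untreated WT replicate 2 (0.16, 0.16 and 0.11) or untreated R350H replicate 2 (0.20, 0.18 and 0.21), and those of KIF3B and KIF1B also without untreated R350H replicate 1 (0.21 and 0.20).

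KIFC3 (chromosome 16, 57758217 to 57863053) was at 64.3 and 73.7 CPM in untreated WT, 80.3 and 90.1 in treated WT, 52.5 and 49.4 in untreated R350H and 52.4 and 52.0 in treated R350H. All 4 WT libraries were above all 4 R350H libraries. It was lower, at -0.44 ± 0.08 untreated (adjusted p = 3.83e-05). KIF21A was at 62.9 and 55.2 CPM in untreated WT, 69.0 and 62.5 in treated WT, 47.4 and 48.2 in untreated R350H and 49.8 and 49.4 in treated R350H, again with all WT libraries above all R350H libraries. It was lower, at -0.31 ± 0.07 (adjusted p = 0.00167), and at -0.22 (adjusted p = 0.0966) without the 2 libraries of strand setting 1. KIF13A was at 54.3 and 49.6 CPM in untreated WT, 42.3 and 45.0 in treated WT, 42.0 and 45.4 in untreated R350H and 45.5 and 45.8 in treated R350H. Its untreated difference of -0.25 ± 0.07 (adjusted p = 0.00823) was not called without untreated WT replicate 1 (-0.19), untreated R350H replicate 1 (-0.20) or the 2 libraries of strand setting 1 (-0.25, adjusted p = 0.0627).

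With doxorubicin, 8 kinesins were higher and 7 lower in R350H than in WT, where 19.1% of all genes tested were higher and 21% lower. Mitotic kinesins split into 3 higher, 3 lower and 6 not called, with a median of -0.02 next to 0.02 for all genes. KIF18A was 2.12-fold higher (1.09 ± 0.08, adjusted p = 6.03e-12) and KIF20A 1.84-fold higher (0.88 ± 0.08, adjusted p = 2.36e-09), and KIF14 was higher by 0.29 ± 0.08 (adjusted p = 0.00796). KIF15 was at 17.7 and 17.8 CPM in treated WT and 10.3 and 10.8 in treated R350H, after 39.2 and 37.8 and 35.6 and 35.3 CPM without treatment, and was lower, at -0.75 ± 0.09 (adjusted p = 1.78e-07). KIF2C was lower, at -0.58 ± 0.07 (adjusted p = 2.29e-07) and KIF22 at -0.36 ± 0.07 (adjusted p = 7.19e-05). The call of KIF14 was lost without treated WT replicate 1 (0.20, adjusted p = 0.124) or treated R350H replicate 2 (0.19, adjusted p = 0.215), and KIF18B, at -0.12 ± 0.10, was lower without treated WT replicate 1 (-0.31, adjusted p = 0.00580).

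Among transport kinesins with doxorubicin, 5 were higher (KIF1C, KIF3A, KIF3B, KIF5C and KIF16B) and 3 lower (KIF21A, KIF21B and KIFC3), with a median of 0.09. KIF3A was higher by 0.52 ± 0.07 (adjusted p = 1.44e-06) and KIF16B by 0.52 ± 0.10 (adjusted p = 2.21e-04). KIFC3 was lower, at -0.71 ± 0.07 (adjusted p = 1.35e-08), KIF21B at -0.42 ± 0.08 (adjusted p = 1.44e-04) and KIF21A at -0.40 ± 0.07 (adjusted p = 6.98e-05). KIF1C (0.19 ± 0.06) and KIF5C (0.28 ± 0.09) lost their calls without treated WT replicate 2 (0.12 and 0.19), treated R350H replicate 1 (0.14 and 0.20) or treated R350H replicate 2 (0.13 and 0.27). KIF1C also lost it with DESeq2's size factors (0.16, adjusted p = 0.0521) and KIF5C by DESeq2 (0.25, adjusted p = 0.0555). KIFC2, at -0.22 ± 0.10 (adjusted p = 0.107), was called lower without treated WT replicate 1 (-0.39) or treated R350H replicate 2 (-0.31), by DESeq2 (-0.25, adjusted p = 0.0475), with DESeq2's size factors (-0.25, adjusted p = 0.0372), without the filter on low counts (-0.23, adjusted p = 0.00788) and with the replicate block (-0.21, adjusted p = 0.0307). KIF1B, at 0.16 ± 0.07 (adjusted p = 0.0538), was called higher without untreated WT replicate 1 (0.16), 2 (0.16) or the 2 libraries of strand setting 1 (0.16) and in a fit of the 4 treated libraries (0.17). Of the other kinesins only KIF26B was called, at -0.75 ± 0.29 (adjusted p = 0.0440), and that call was lost without any 1 of the 4 treated libraries (-0.69 to -0.90), by DESeq2 (-0.78), without the filter (-0.76) and without the 2 libraries of strand setting 1 (-0.75, adjusted p = 0.0525).

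**Figure D5:**
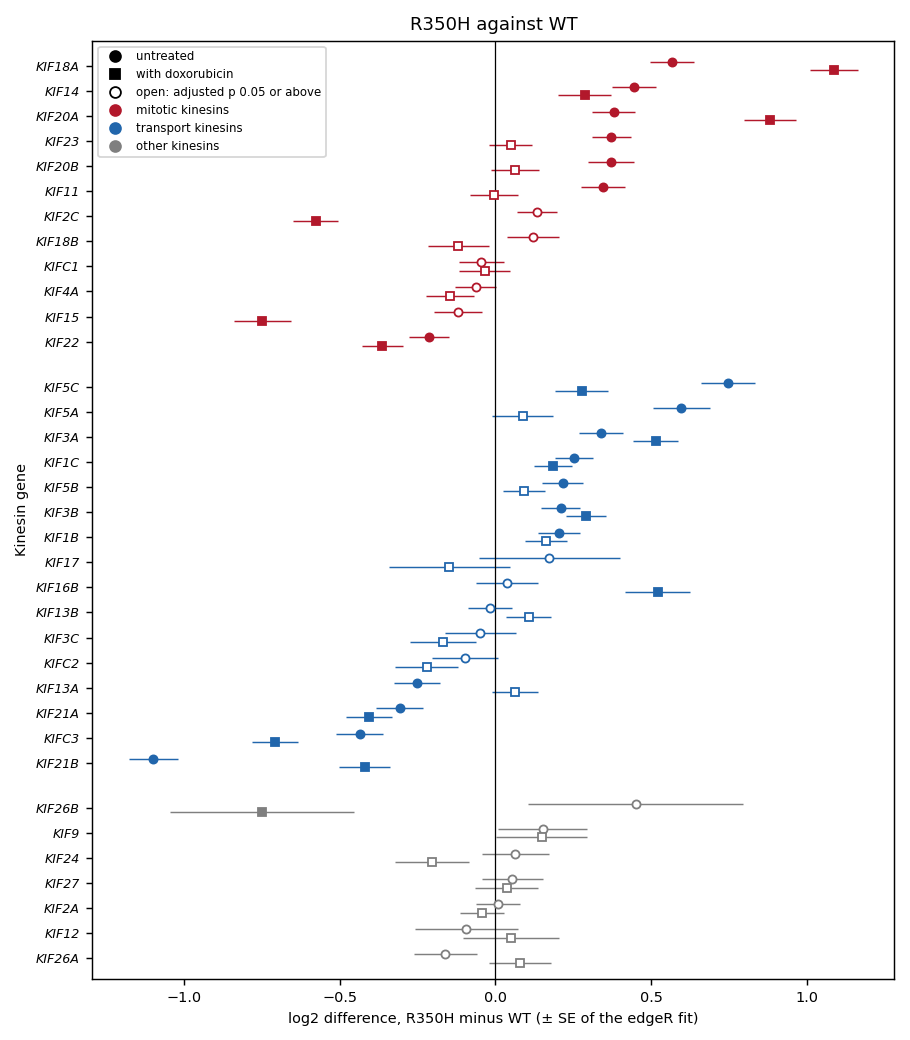
Log2 difference between R350H and WT (x axis, bars are the SE of the edgeR fit) of the 35 detected kinesins without treatment (circles) and with doxorubicin (squares), filled where the adjusted p is under 0.05, n = 2 libraries per group. KIF18A and KIF20A lie furthest right with doxorubicin, at 1.09 and 0.88, and KIF21B furthest left without treatment, at -1.10.

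The companion lists are given against the shares of all genes, of which 17.3% were higher and 19.5% lower untreated and 19.1% higher and 21% lower with doxorubicin. Of the 20 spindle partners, 2 were higher and 5 lower in untreated R350H (10.0% and 25.0%), and 7 were higher and 3 lower with doxorubicin (35.0% and 15.0%), with PLK1 at 0.92 ± 0.08, CENPE at 0.76 ± 0.09 and AURKB at -0.73 ± 0.09. Of the 23 adaptors, 7 were higher and 4 lower untreated (30.4% and 17.4%) and 8 were higher and 4 lower with doxorubicin (34.8% and 17.4%). HAP1, a huntingtin-associated adaptor of kinesin-1, was higher in both, by 0.95 ± 0.11 and 0.73 ± 0.10, and PLEKHM2, which joins kinesin-1 to lysosomes, was lower in both, at -0.57 ± 0.07 and -0.55 ± 0.07. Of the 23 dynein and dynactin genes, 6 were higher and 2 lower untreated (26.1% and 8.70%) and 6 were higher and 3 lower with doxorubicin (26.1% and 13.04%). Of the 15 DREAM and MYB-MuvB regulators, 5 were higher and 4 lower untreated (33.3% and 26.7%) and 1 was higher and 9 lower with doxorubicin (6.67% and 60.0%), among them E2F1 at -1.04 ± 0.10 and MYBL2 at -0.97 ± 0.07.

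Untreated and treated genotype comparisons set different libraries against each other. They are not independent, since both come from the same fit with a shared spread and compare the same WT and R350H lines. The kinesins higher in both, 7 of the 13 called untreated and of the 8 called with doxorubicin, were KIF14, KIF18A, KIF20A, KIF1C, KIF3A, KIF3B and KIF5C. Those lower in both, 4 of 5 and of 7, were KIF22, KIF21A, KIF21B and KIFC3. Over all genes tested, 1696 were higher in both, which was 55% of those called untreated and 49.6% of those called with doxorubicin, and 2116 were lower in both (60.7% and 56.4%). The genomic surroundings were read for each kinesin as the median difference of other tested genes within 3 Mb. For KIF18A the 10 such genes had medians of 0.56 untreated and 0.46 with doxorubicin, next to 0.57 and 1.09 for KIF18A itself, and the part of its region in the difference was not tested. For KIFC2 the 92 such genes had medians of -0.67 and -0.58, while KIFC2 itself was at -0.10 and -0.22 and was not called, although the second value passed in the alternatives named above.

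The test of the difference between the doxorubicin responses, R350H minus WT, called 11 of 35 kinesins, 5 with a higher and 6 with a lower response in R350H. Of all genes tested, 6.46% were higher and 8.18% lower. Mitotic kinesins were called in both directions, with 4 lower (KIF2C, KIF15, KIF11 and KIF23) and 2 higher (KIF18A and KIF20A), and their median was -0.20 next to 0.03 for all genes. KIF2C fell further in R350H, by a difference of -0.71 ± 0.10 (adjusted p = 5.09e-06), as did KIF15, by -0.63 ± 0.12 (adjusted p = 4.9e-04). KIF18A (0.52 ± 0.10, adjusted p = 8.85e-04) and KIF20A (0.50 ± 0.11, adjusted p = 0.00214) fell less far. The differences were smaller for KIF11 (-0.35 ± 0.10, adjusted p = 0.0234) and KIF23 (-0.32 ± 0.09, adjusted p = 0.0196). Spindle partners were called higher more often than lower, with 6 and 2 of 20, among them PLK1 at 0.75 ± 0.11, HMMR, a spindle microtubule factor, at 0.85 ± 0.11 and AURKB, the kinase of the passenger complex, at -0.59 ± 0.11.

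The calls of KIF2C, KIF15 and KIF18A held in every alternative run. KIF20A was not called without treated R350H replicate 2 (0.39, adjusted p = 0.0572) or without the 2 libraries of strand setting 1 (0.40, adjusted p = 0.0535). KIF11 was not called without untreated WT replicate 2 (-0.27), treated WT replicate 1 (-0.28), untreated R350H replicate 1 (-0.34) or 2 (-0.35) or treated R350H replicate 1 (-0.36). KIF23 was not called without treated WT replicate 1 (-0.29), untreated R350H replicate 1 (-0.34) or 2 (-0.31) or treated R350H replicate 1 (-0.32), or without the 2 libraries of strand setting 1 (-0.33, adjusted p = 0.0563). KIF18B, at -0.24 ± 0.13, was called lower without treated WT replicate 1 (-0.43). KIF20B missed the threshold at -0.31 ± 0.11 (adjusted p = 0.0514) and was called lower without untreated WT replicate 1 (-0.41), treated WT replicate 2 (-0.42) or the 2 libraries of strand setting 1 (-0.36), by DESeq2 (-0.35) and with DESeq2's size factors (-0.35).

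Of the transport kinesins, KIF21B (0.68 ± 0.11, adjusted p = 1.01e-04), KIF16B (0.48 ± 0.14, adjusted p = 0.0224) and KIF13A (0.32 ± 0.10, adjusted p = 0.0413) had higher responses in R350H, and KIF5A (-0.51 ± 0.13, adjusted p = 0.00976) and KIF5C (-0.47 ± 0.12, adjusted p = 0.00904) lower ones. After treatment KIF21B was still lower in R350H than in WT, with a gap of -0.42 ± 0.08 against -1.10 ± 0.08 before, and the level had fallen in WT while the R350H change did not pass the test. KIF5A and KIF5C started higher in R350H and ended at 16.2 to 18.8 and 26.5 to 27.8 CPM, next to 16.0 to 17.0 and 22.0 to 22.8 CPM in WT. The call of KIF21B held in every alternative run. KIF5A lost it without untreated R350H replicate 1 (-0.47) or treated R350H replicate 2 (-0.46), KIF5C without untreated R350H replicate 1 (-0.43) and KIF16B without untreated WT replicate 2 (0.44), treated WT replicate 1 (0.30), untreated R350H replicate 1 (0.51) or 2 (0.46) or treated R350H replicate 2 (0.38). KIF16B also lost it by DESeq2 (0.45, adjusted p = 0.0630) and without the 2 libraries of strand setting 1 (0.51, adjusted p = 0.132). KIF13A lost it without any 1 library other than untreated WT replicate 2 (0.25 to 0.38), by DESeq2 (0.28, adjusted p = 0.119), with DESeq2's size factors (0.28, adjusted p = 0.0809), with the replicate block (0.32, adjusted p = 0.0516) and without the 2 libraries of strand setting 1 (0.31, adjusted p = 0.105). KIFC3, at -0.27 ± 0.11, was called lower without untreated WT replicate 2 (-0.37) or treated WT replicate 1 (-0.35) and with DESeq2's size factors (-0.31).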

How the data were processed

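Poly(A) RNA of 8 HCT116 libraries was made with a stranded TruSeq kit, per the labels' protocols. The deposited counts are whole numbers per gene made by the authors with featureCounts 2.0.1 on GENCODE 34 (hg38) at a mapping quality of 10 or more, per the file headers, with strand setting 1 for untreated WT replicate 1 and untreated R350H replicate 2 and setting 2 for the other 6. A wrong setting would put antisense reads on a gene, so the fit was also run without these 2 libraries. The submitters' processing notes name DESeq2 1.36.0 and featureCounts 1.5.0-p1, the aligner STAR 2.7.5a, and for trimming and quality Trim Galore 0.6.10 and FastQC 0.11.4.

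Counts were fitted in R 4.3.3 with edgeR 4.0.16 (TMM, filterByExpr, robust quasi-likelihood test) as 4 group means over the 8 libraries, leaving 4 residual degrees of freedom, with Benjamini-Hochberg adjustment over 17868 genes, which held 99.9% of counts, and a call at an adjusted p under 0.05. The tests were 2-sided, no replicate block was used, and the script was tested on simulated data. The biological coefficient of variation was 5.35%, and precision is limited by 2 libraries per group. Replicates differed more in WT than in R350H. Squared deviations of replicate counts from expected counts, over the expected counts, came to 7.85 per gene in untreated WT and 7.48 in treated WT. They came to 3.28 in untreated R350H and 1.93 in treated R350H. The spread was shared by the 4 groups, so calls that rest on WT libraries may be too sure. CPM were scaled to TMM-adjusted library totals, and TPM were computed from counts and exon lengths. Values after ± are the SE of a log2 change, or the SD of a level.

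Deviations of same-numbered libraries correlated at -0.076 to 0.041, so no shared effect of the replicate number was seen. The labels do not say whether same-numbered libraries were made together, and these correlations cannot decide it. Alternatives were other size factors, DESeq2 1.42.0, no filter, a higher detection limit, each library left out, the replicate block, and fits on the 4 libraries compared. Genes with full values were the up to 4 called kinesins with the smallest adjusted p per comparison and direction, the most abundant per class and KIF4B. Of companion lists, those named were among the 4 with the smallest adjusted p in a comparison. The members and the lists were chosen with earlier results of these data known. A further table of 202 genes in 8 columns held 0 kinesins and was not used, and 13 KIF symbols that are not protein coding were left out.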

Additional observations from a re-analysis of the deposited data

Results flagged for a closer look

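For 11 of 35 kinesins the test of the difference between the doxorubicin responses, R350H minus WT on the log2 scale, passed an adjusted p under 0.05 in edgeR. Among all genes tested, 6.46% were higher and 8.18% lower. The calls of KIF2C, KIF15, KIF18A and KIF21B held in every alternative run. Each of the other calls was lost in some, from 1 alternative for KIF5C to 11 for KIF13A. Among mitotic kinesins, the depolymerase KIF2C (-0.71) and the spindle motors KIF15 (-0.63) and KIF11 (-0.35) and the cytokinesis motor KIF23 (-0.32) fell further in R350H, while KIF20A (0.50) and KIF18A (0.52) fell less far. Among transport kinesins, KIF5A (-0.51) fell further in R350H and KIF5C (-0.47) rose in WT alone by the test in each genotype. The WT falls of KIF16B (0.48), KIF13A (0.32) and KIF21B (0.68) were larger than the R350H changes. Groups of 2 libraries were too small for a check of single outlying samples.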

How the results depend on the processing

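Of 95 called kinesin results, 28 lost the call under at least 1 alternative (104 of 1319 refits) and 0 reversed. Results not called gained a call in 27 of 1096 refits and changed sign without a call in 61. Leaving out 1 library gave 2 to 4 kinesins with a higher and 2 to 7 with a lower response difference, 3 to 5 lower in untreated R350H and 5 to 9 higher in treated R350H. The transport median ranged from -0.14 to -0.018 for the response difference, -0.098 to 0.051 for doxorubicin in WT, -0.0046 to 0.15 for untreated genotypes and 0.032 to 0.088 for treated ones, and the mitotic median in R350H from -1.77 to -1.68. Without the 2 libraries of strand setting 1, 2 kinesins had a higher response difference and 3 were lower in untreated R350H, and the transport medians were 0.049 for doxorubicin in WT and 0.19 for untreated genotypes. DESeq2 called 3 higher response differences. The cause of these shifts was not tested, and the fits that left out libraries also had fewer samples. With KIF2A counted as mitotic the untreated genotype median was 0.13 and the mitotic shares were 56.7%, 34.4%, 57.6% and 33.7% (WT untreated, WT treated, R350H untreated, R350H treated). CPM sums, not divided by length, gave 43.7%, 23.0%, 45.6% and 22.6%. With the replicate block, 8 kinesins were higher and 8 lower in treated R350H, where KIFC2 was added (-0.21), and 4 response differences were higher and 6 lower, where KIF13A was lost (adjusted p = 0.0516). The block left the other counts as they were, and the labels do not say whether the replicate numbers pair the samples. Doubtful at this depth are KIF26B and KIF17, the scarcest detected kinesins.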

Other observations

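The antisense gene of a kinesin fell with doxorubicin at 2 loci, in the edgeR fit over all genes. KIF9-AS1 changed by -0.91 ± 0.14 in WT (adjusted p = 4.03e-06) and -1.12 ± 0.14 in R350H (adjusted p = 1.49e-07), while KIF9 itself was at -0.10 ± 0.15 and -0.10 ± 0.14 and was not called. KIF23-AS1 changed by -1.12 ± 0.32 in WT (adjusted p = 0.00551) and -1.25 ± 0.27 in R350H (adjusted p = 3.29e-04), next to -1.33 ± 0.07 and -1.65 ± 0.07 for KIF23, and was higher by 0.81 ± 0.26 in untreated R350H (adjusted p = 0.0147). KIF5C-AS1 was not called in any comparison. The strand setting differed between the count files, so the split of reads between a gene and its antisense partner is uncertain.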
